A study of Homo sapiens with 2 samples.

Results

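The E2F and DP genes encode the transcription factors through which the retinoblastoma pathway controls entry into S phase. The members described here are the 10 genes E2F1 to E2F8, TFDP1 and TFDP2, chosen by name because E2F3 is a published target of miR-203. They were measured by 22 of the 54675 probe sets on the array, and they are 10 of the 19775 genes that had a probe set with exactly 1 gene symbol. No probe set with several symbols named a member (0 of 1801). The cells were MDA-MB-231, an established human triple-negative breast cancer line, infected either with a control virus that carried an empty vector or with a virus that overexpressed miR-203, and kept as stable lines in DMEM with serum. Each line was hybridised once, so there were 2 arrays with no replicate, and no test or p-value is possible. A difference between the arrays also holds whatever differed in culture, infection, RNA preparation and hybridisation. The labels give neither the number of clones in each line nor the arm or level of the microRNA, and 0 probe sets were annotated to the miR-203 gene.

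E2F proteins bind DNA as heterodimers with a DP protein, TFDP1 or TFDP2, except E2F7 and E2F8, which bind without DP. E2F1, E2F2 and E2F3 are the activators of genes for DNA synthesis, and RB1 binds and silences them until cyclin-dependent kinases phosphorylate it. E2F4 and E2F5 act mainly as repressors with the RB1 relatives RBL1 and RBL2 in resting cells, E2F6 represses without pocket proteins, and E2F7 and E2F8 shut the same genes down late in S phase. A microRNA lowers its target mRNAs and their translation by pairing through its seed, so an mRNA array can miss an effect on protein alone.

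The sequence below is shown because its seed is the part that pairs with target mRNAs. It is the 3p arm of MIR203A from RefSeq (GRCh38.p14, chr14:104117469-104117490, plus strand), with the seed, bases 2 to 8, in capitals.
hsa-miR-203a-3p: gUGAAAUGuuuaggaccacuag
The DNA letters complementary to this seed are CATTTCA. Sites for it in the member mRNAs were not analysed here.

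None of the 10 genes differed by as much as 1.5-fold between the lines. Each gene was given its probe set with the highest mean over both arrays, and all 10 passed the filter, which asks that the higher of the 2 log2 values reach 5.37, the median level of all probe sets. The counts were 0 of 10 at least 1.5-fold higher and 0 of 10 at least 1.5-fold lower in the miR-203 line, where 0.721% and 1.08% of the 13311 genes passing the filter were. At 1.2-fold the counts were again 0 of 10 in each direction, where 11.0% of all genes were higher and 7.35% lower. These counts do not set the family apart from other genes. Differences are given throughout on the log2 scale as the miR-203 value minus the empty-vector value. They ran from -0.23 for E2F4 to 0.19 for E2F5. Their median was 0.011, beside 0.013 over all genes. There were 5 genes above 0, 4 below and 1 at exactly 0, but 3 above and 7 below with the median over the probe sets of each gene, and 4 above and 6 below with a loess trend on mean level removed. Of all genes, 76.0% had a difference no larger in size than that of E2F4.

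As a description of the local spread, which does not replace replicates, each difference was set against the middle 95% of differences among the 500 genes closest to it in mean expression. All 10 members lay inside it. E2F4 lay closest to the lower edge, with 7.0% of its neighbours at or below it, followed by E2F3 with 8.8%. At the other end, 78.8% of the neighbours of E2F5 lay at or below it.

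**Figure D1:**
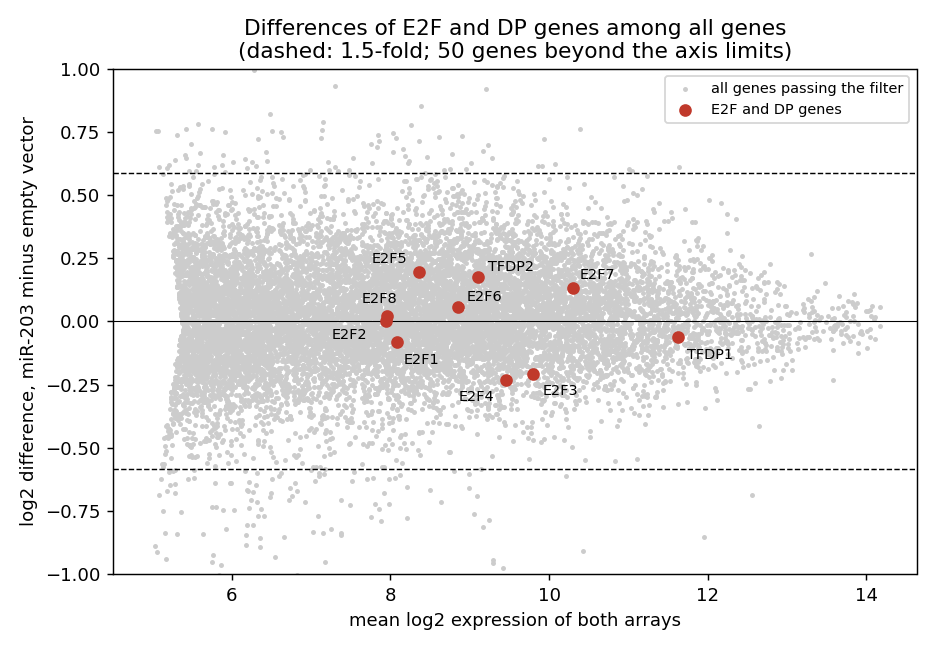
Log2 difference, miR-203 minus empty vector, against the mean log2 expression of both arrays, for the 13311 genes passing the filter (grey) and the 10 E2F and DP genes (red). Dashed lines mark 1.5-fold, 50 genes lie beyond the axis limits, and all 10 red points lie between the lines, from -0.23 (E2F4) to 0.19 (E2F5).

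Among the activators, E2F3 was lower in the miR-203 line by both of its probe sets, by a small amount. The main probe set, 203693_s_at, read 9.90 with the empty vector and 9.70 with miR-203. This is a difference of -0.21, or 1.15-fold lower, where neighbouring genes spanned -0.32 to 0.41. The second, 203692_s_at, read 7.53 and 7.48, a difference of -0.058. Both names end in _s_at, which marks probe sets that can match several transcripts, and the annotation does not say which E2F3 isoform either one reports. The published target therefore had a difference in the direction of repression that was no larger than those of many genes at its level.

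E2F1, which can also drive apoptosis when free of RB1, differed less. Its main probe set, 204947_at, read 8.12 with the empty vector and 8.04 with miR-203, a difference of -0.081. Its other probe set, 2028_s_at, read 7.75 and 7.76, a difference of 0.018. The probe sets thus lay on opposite sides of 0, and both differences were small beside the -0.45 to 0.41 of neighbouring genes.

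For E2F2 the deposited values of the main probe set, 228361_at, were identical on both arrays at 7.95, a difference of 0. Such exact ties were found in 281 of the 13311 genes (2.11%) and in 6.40% of all probe sets, and their origin was not tested. The second probe set, 207042_at, read 5.79 with the empty vector and 5.60 with miR-203, a difference of -0.19. The third, 235582_at, was dim on both arrays, at 4.48 and 4.59, and did not pass the filter. E2F2 thus had 1 probe set lower, 1 equal and 1 dim one higher.

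The promoters of the activators are shown because E2F proteins are known to regulate these genes themselves. RefSeq promoter windows (GRCh38.p14) were found for 8 of the 10 members, in 11 windows. E2F5 and E2F8 had none. The 250 bases before each start were searched on both strands for the octamers TTTCCCGC, TTTCGCGC, TTTGCCGC and TTTGGCGC, and then with TTTCCCGG, TTTCGCGG, TTTGCCGG and TTTGGCGG added, a choice made with the member promoters in view. The 80 bases before the start of each activator follow, with matches in capitals.
E2F1 (chr20:33686386-33686465, minus strand): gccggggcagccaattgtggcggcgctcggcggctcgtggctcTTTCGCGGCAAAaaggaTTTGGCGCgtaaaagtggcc
E2F2 (chr1:23531234-23531313, minus strand): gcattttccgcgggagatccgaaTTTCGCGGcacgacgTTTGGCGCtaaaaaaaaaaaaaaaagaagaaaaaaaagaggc
E2F3 (chr6:20401799-20401878, plus strand): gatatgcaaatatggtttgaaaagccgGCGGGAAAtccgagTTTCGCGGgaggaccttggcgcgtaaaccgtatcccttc
In E2F1 the first run of capitals holds an overlapping pair, TTTCGCGG and, on the other strand, TTTGCCGC, beginning 37 and 33 bases before the start, and the other match begins 20 bases before it. In E2F2 the matches begin 57 and 42 bases before it. In E2F3, whose other window held no match (0), they begin 53 and 39 bases before it, the first on the opposite strand.

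With the 4 octamers, 4 of the 11 member windows held a match, against 2.79% of all 35116 windows. With 8 octamers it was 5 of 11, against 5.23%. Matches are also common among the E2F target genes described further below. Their windows held one in 16 of 63 with 4 octamers and in 20 of 63 with 8. Besides the activators, TFDP1 held 1 match and E2F6 held 2, the latter only with the wider set. A match describes letters and not binding. By their main probe sets E2F1, E2F2 and E2F3, with matches close to the start, had differences between -0.21 and 0, and TFDP1 and E2F6 had -0.063 and 0.059. The members with a window and no match were E2F4, E2F7 and TFDP2, at -0.23, 0.13 and 0.18.

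Of the pocket-protein partners, E2F4 had the lowest difference of the family by its main probe set and both of its probe sets were lower. The main one, 38707_r_at, read 9.57 with the empty vector and 9.34 with miR-203, a difference of -0.23, or 1.17-fold lower, where neighbouring genes spanned -0.33 to 0.43. The other, 202248_at, read 8.29 and 7.996, a difference of -0.29, or 1.23-fold lower. Their gap of 0.064 was among the smaller ones, with 17.8% of the 6286 genes with several passing probe sets having one no wider. E2F4 was thus the member whose probe sets gave the closest values.

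E2F5, the other repressor of this class, lay on the opposite side. Its main probe set, 221586_s_at, read 8.26 with the empty vector and 8.45 with miR-203, a difference of 0.19, or 1.14-fold higher, where neighbouring genes spanned -0.32 to 0.48. Its other probe set, 222051_s_at, was listed at 2.94 on both arrays, under the filter level. The difference of E2F5 therefore rests on 1 probe set.

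Among the repressors that do not need pocket proteins, E2F6 and E2F8 were each measured by 1 probe set and differed little. E2F6, by 203957_at, read 8.82 with the empty vector and 8.88 with miR-203, a difference of 0.059. E2F8, by 219990_at, read 7.95 and 7.97, a difference of 0.021. E2F7, by 228033_at, read 10.23 and 10.37, a difference of 0.13. All of these were slightly above 0 by these probe sets.

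A second probe set of E2F7 disagreed. 241725_at read 5.54 with the empty vector and 5.16 with miR-203, a difference of -0.38, the largest in size of any member probe set. With miR-203 it lay below the filter level, and with the lower reading lifted to 5.37 the difference was -0.17. Probe sets of similar level spanned -0.39 to 0.47. The direction of E2F7 therefore depends on the probe set.

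The DP partners also gave opposite values. TFDP1 was lower by all 3 of its probe sets. They read 11.66 and 11.60 for 212330_at, 9.78 and 9.71 for 242939_at, and 8.02 and 7.81 for 204147_s_at, in the empty-vector and miR-203 lines in turn. The differences were -0.063, -0.074 and -0.21.

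TFDP2 was split by probe set. 203588_s_at read 9.01 with the empty vector and 9.19 with miR-203, a difference of 0.18, and 203589_s_at read 7.09 and 7.33, a difference of 0.24. 226157_at read 7.72 and 7.39, a difference of -0.33, or 1.26-fold lower, and 244043_at, under the filter level on both arrays, read 5.35 and 4.98. Both probe sets ending in _s_at were thus higher in the miR-203 line, and both of the others were lower. Which TFDP2 transcripts each one reports was not analysed here.

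**Figure D2:**
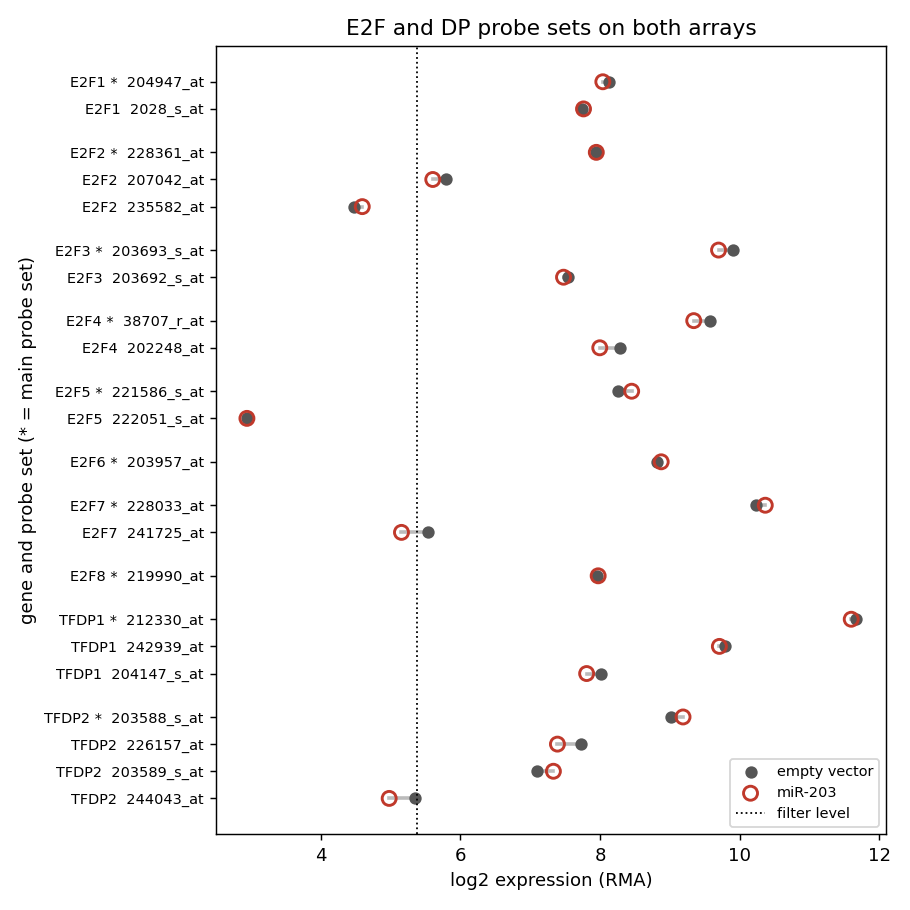
Log2 expression of all 22 E2F and DP probe sets in the empty-vector line (filled grey) and the miR-203 line (open red), 1 array each, with a star at the main probe set of each gene and a dotted line at the filter level of 5.37. The paired points lie close together throughout, E2F3, E2F4 and TFDP1 are lower in the miR-203 line by every probe set, and E2F1, E2F2, E2F7 and TFDP2 have probe sets on both sides.

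Over the 19 member probe sets that passed the filter, 7 were above 0, 11 below and 1 equal, with a median of -0.063. Of all 23997 passing probe sets with 1 symbol, 51.0% were above 0 and 46.6% below. At 1.2-fold, 3 of the 19 were lower, where 8.06% of all were, and 0 of the 19 were higher, where 10.9% were. The 3 were 202248_at of E2F4, 241725_at of E2F7 and 226157_at of TFDP2. Since probe sets of 1 gene share its RNA, these are not 19 separate measurements. Of the 7 members with several passing probe sets, 3 had all of them on the same side of 0, namely E2F3, E2F4 and TFDP1, and all 3 were on the lower side. Over all 6286 such genes 52.7% had the same sign throughout. The gap between the highest and the lowest probe set was 0.52 for E2F7 and 0.57 for TFDP2, and 93.7% and 95.8% of those genes had one no wider. The gap of E2F7 rests on 241725_at, with its reading under the filter level.

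The pocket proteins, which hold E2F factors inactive, were measured next. RB1, which restrains the activators, read 9.55 with the empty vector and 9.41 with miR-203, a difference of -0.14. RBL1 (p107) read 6.93 and 6.85, a difference of -0.078, while its other passing probe set gave 0.18. RBL2 (p130), the main partner of E2F4 in resting cells, read 8.24 and 8.51, a difference of 0.27. At 1.2-fold, 1 of the 3 was higher and 0 lower, where 11.0% and 7.35% of all genes were, and at 1.5-fold 0 of 3 in each direction.

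The MuvB core joins RBL2 and E2F4 in the DREAM repressor complex, and MYBL2 and FOXM1 later in the cycle. Of its 8 listed genes 7 passed the filter, with 3 above 0, 4 below and a median of -0.0071. MYBL1, a MYB-family activator, differed by 0.23 and the core subunit LIN9 by 0.21. The core subunits RBBP4, LIN37 and LIN52 were at 0.048, -0.022 and -0.095 by their main probe sets. The 5 passing probe sets of RBBP4 ran from -0.069 to 0.22, and the other probe set of LIN52 gave 0.20. The late activators MYBL2 and FOXM1 were at -0.0071 and -0.099. At 1.2-fold 0 of 7 were higher and 0 lower, beside the same 11.0% and 7.35%. LIN54, the DNA-binding subunit, lay under the filter level.

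Upstream of the pocket proteins, the G1 cyclins, their kinases and inhibitors held the one difference past 1.5-fold in the lists of the E2F pathway. Cyclin D2 (CCND2), which with CDK4 or CDK6 phosphorylates RB1, read 8.81 with the empty vector and 6.67 with miR-203, a difference of -2.14, with -1.90 by its second probe set. Cyclin D1 (CCND1) was at -0.19 by its main probe set and at -0.58, just short of 1.5-fold lower, by its other. Of 16 listed genes 14 passed, with 1 lower at 1.5-fold and 0 higher, where 1.08% and 0.721% of all genes were. At 1.2-fold 3 were lower and 1 higher, where 7.35% and 11.0% of all genes were. Their median was -0.099, with 5 above 0 and 9 below, beside 0.013 over all genes. With the median over probe sets it was -0.17, with 1 above 0 and 12 below. The kinase inhibitors CDKN2A and CDKN1B (p27) had differences of -0.33 and 0.32, and cyclin D3 (CCND3) -0.28. CDKN2A, counted among those lower at 1.2-fold, was dim, at 6.10 with the empty vector and 5.76 with miR-203. Only 1 of its 3 probe sets passed the filter, and whether its signal exceeded background is unknown. Without the probe sets ending in _x_at and _s_at, CCND2 had no value and 0 of the 9 genes then passing were 1.5-fold lower. The E2F and DP genes showed no difference of the size seen for CCND2.

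Genes known to be driven by E2F in late G1 and S phase were spread on both sides of 0. Of 50 listed genes 46 passed the filter and the other 4 were not analysed here. At 1.5-fold the count was 0 of 46 in each direction, and at 1.2-fold 5 of them were higher and 4 lower, against 11.0% and 7.35% of all genes. Their median was -0.022, with 17 above 0 and 29 below, where 52.1% of all genes were above and 45.8% below. When probe sets ending in _x_at or _s_at were left out, the split was 16 above and 18 below of 34, with a median of -0.0062. It was 16 above and 28 below with the median over the probe sets of each gene, with a median of -0.065, and 15 above and 31 below with a loess trend on mean level removed, with a median of -0.047. This list shares 4 genes with the G1 list and 1 each with the pocket proteins and the MuvB list.

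The target genes with the largest differences lay on both sides. POLA1, the catalytic subunit of DNA polymerase alpha, read 9.11 with the empty vector and 9.47 with miR-203, a difference of 0.37. Cyclin A2 (CCNA2), the S-phase cyclin, read 10.24 and 10.54, a difference of 0.30, with 0.31 by its other probe set. UNG, which removes uracil from DNA, read 11.21 and 10.86, a difference of -0.34. MCM2, a subunit of the replicative helicase, read 11.12 and 10.82, a difference of -0.30. By their main probe sets these were the extremes of the list, from UNG to POLA1, while a second probe set of BRCA1 was at -0.35.

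The partners of E2F6 in the polycomb complex PRC1.6 had a median of -0.043 over the 10 of 11 that passed, with 4 above 0 and 6 below. RYBP, a subunit that binds the RING proteins, differed by 0.31, RING1, a ubiquitin ligase, by -0.19, PCGF6, the subunit that defines this complex, by -0.18 and WDR5, a WD-repeat adaptor, by -0.14. At 1.2-fold 1 of the 10 was higher and 0 lower, a count near the 11.0% and 7.35% of all genes. Genes linked to E2F-driven apoptosis had a median of 0.0088 over 6 of 9, with 3 above 0, 2 below and 1 at 0. PMAIP1 (NOXA) was at 0.30 and BCL2L11 (BIM) at 0.12 by its main probe set, the latter with 6 passing probe sets from -0.34 to 0.38, while MAP3K5 (ASK1) was at -0.10 and TP53INP1 at -0.020, with 0.39 by its other passing probe set.

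Genes of ubiquitin-dependent turnover in this pathway all passed, 6 of 6, with 2 above 0, 4 below and a median of -0.028. FBXW7, the ligase subunit that targets cyclin E, differed by 0.37 and the deubiquitinase USP11 by -0.29. SKP2, which is both an E2F target and a ligase subunit for E2F1 and p27, was at 0.19. CDC20 and FZR1, activators of the anaphase-promoting complex, were at -0.071 and -0.052. The 4 passing probe sets of FZR1 ran from -0.052 to 0.11. Cyclin F (CCNF), which directs E2F7 and E2F8 to degradation, was at -0.0034, with -0.23 by its other probe set.

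**Figure D3:**
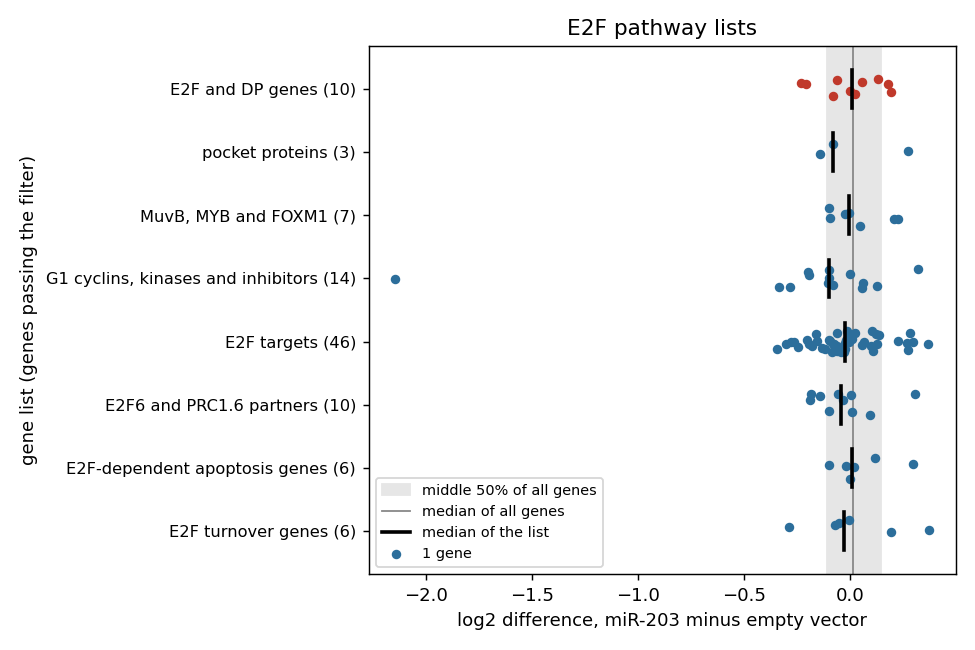
Log2 difference, miR-203 minus empty vector, of each gene passing the filter (points) in the E2F and DP family and 7 related lists, with the list median as a black bar and the number of genes in brackets. The grey band and line give the middle 50% (-0.11 to 0.15) and the median (0.013) of all 13311 genes, the list medians lie inside the band, and CCND2 at -2.14 is the point far to the left.

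The labelled line was checked by its markers. All 7 mesenchymal markers passed the filter, with vimentin (VIM) at 13.90 and 13.89 in the empty-vector and miR-203 lines. Of all genes 13311 of 19775 passed, so passing alone does not show that a marker was expressed. Of the luminal markers PGR, CDH1 and ESRP1 did not pass the filter and the other 5 of 8 did, from a lowest difference of -0.26 to a highest of 0.10. Of fibroblast markers 3 of 6 passed, with COL1A1 at 7.86 and 7.85 and PDGFRB at 6.05 and 6.39 in turn, while LUM was at 3.01 and 2.64. Of blood and endothelial markers 4 of 7 passed, with PECAM1 at 7.06 and 6.95 and HBB at 6.30 and 6.22. CD3E passed at 5.91 and 5.82 and CD34 at 5.67 and 5.84, while PTPRC was at 3.65 and 3.98. The luminal markers that passed included EPCAM at 8.35 and 8.25, SPDEF at 8.02 and 8.12 and GATA3 at 7.89 and 7.76 in turn. FOXA1 was at 6.53 and 6.27 and ESR1 at 6.27 and 6.30. No listed marker differed by 1.5-fold by its main probe set (0 higher, 0 lower). COL1A1 had 4 passing probe sets, which ran from -0.0039 for the main one to 0.79, past 1.5-fold higher. The arrays correlated with r = 0.996 over 54675 probe sets, and the SD of the difference over all genes was 0.22.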

How the data were processed

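The values are log2 expression per probe set, deposited by the authors as 1 column per array and made with RMA per the submitters' processing notes (version not given in the sources used here). Per the labels' protocols, cRNA came from 6 µg of total RNA. RMA forces both arrays to one distribution, so a shift of all mRNAs would not be seen. The log2 scale was read from the values (1.37 to 14.23). Symbols came from the platform annotation and were updated through RefSeq gene identifiers. The difference of the 2 columns was taken with Python 3.11.15 and pandas 2.3.3. Only the counting past a threshold, at 2-fold, was tested on simulated differences. The subtraction, the filter and the choice of probe sets were not tested in that way. With 1 array per group no test was made, and the number of arrays limits the precision.

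Every member is named. In each list of 8 or fewer genes every passing gene is named, otherwise the 4 largest differences in size. CCND1 was added for its second probe set. Marker lists are summarised. The members and lists were chosen with earlier results of these data known. Alternatives covered the filter, the probe sets, a loess trend (span 0.3, statsmodels 0.14.6), centring, raised values and the threshold.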

Additional observations from a re-analysis of the deposited data

How the results depend on the processing

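No paired analysis was possible because there was 1 array per line, and no replicate could be left out. Across the alternatives the counts of members 1.5-fold higher and lower stayed at 0. With 0 at 1.5-fold the 2-fold counts were fixed, and the filter settings could not change the counts either. The 1.2-fold threshold was tried on the main values only, with counts of 0. At that threshold E2F4 would count as lower with the loess trend removed (-0.27). So would TFDP2 without the probe sets ending in _x_at or _s_at (-0.33). For the other results, 33 alternative values could not differ from the main ones, because every main member value was at least 7.95 on the higher array and so was untouched by the filter settings. Of the remaining 49, 45 moved by less than 0.10, the median SD between probe sets of a gene. This SD comes from the same 2 arrays and does not measure the spread between replicates. Many of the 45 could hardly move. Centring shifted every value by 0.0025, and the median over probe sets could not change E2F6 and E2F8. Leaving out _x_at and _s_at could not change E2F1, E2F2, E2F4, E2F6, E2F7, E2F8 or TFDP1. The 4 values that moved further came from the choice of probe sets. With the median over probe sets E2F2 went from 0 to -0.19, E2F7 from 0.13 to -0.13 and TFDP2 from 0.18 to -0.048. When probe sets ending in _x_at or _s_at were left out, TFDP2 was at -0.33, and E2F3 and E2F5 had no value. The median over the members, 0.011, was -0.061 with the median over probe sets, -0.031 without those probe sets and -0.012 with the loess trend removed, which also took E2F8 to -0.0014. RMA values hold no detection calls, so signal over background is unknown for the dim probe sets.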

Other observations

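Within the E2F target list, the 6 subunits of the MCM helicase were looked at together after their values were seen. MCM2, MCM7, MCM5, MCM3 and MCM6 differed by -0.30, -0.27, -0.18, -0.12 and -0.0054, and MCM4 by 0.067. Thus 5 of 6 lay below 0, where 45.8% of all genes did, and their median was -0.15. The 5 passing probe sets of MCM4 ran from -0.14 to 0.067. At 1.5-fold 0 of 6 were lower or higher, where 1.08% and 0.721% of all genes were. At 1.2-fold MCM2 and MCM7 were lower, where 7.35% of all genes were. Since these genes were picked after their values were seen, the counts are a description only.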
